A study of Mus musculus with 12 samples.

Results

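Vps37b, Crem, P2ry10, Dgat1 and Emb are 5 of the 24781 genes in a table of transcript levels in mouse invariant natural killer T (iNKT) cells. They were picked by symbol because their transcripts were higher in lung than in thymus iNKT cells. Those lung and thymus values are therefore given here as a description. The questions put to the data were whether both CD244 subsets of lung cells showed the rise, and whether its size differed between them.

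All cells came from mice 6 weeks old. The sort took cells that bound a CD1d tetramer and carried TCRbeta, NK1.1 and CXCR6. The 4 groups, of 3 libraries each and 100 cells a library, were lung CD244-positive, lung CD244-negative, thymus CD244-positive and thymus CD244-negative. The labels name the CD244-positive cells C2 and the CD244-negative cells C1, and give neither treatment nor genotype beside the sort. They describe the replicates as independent preparations of libraries and mention no separate animals. The p-values therefore rest on the spread among libraries, part or all of which may be technical. The limma fit estimated that spread over all 4 groups together and drew it toward that of other genes of similar level.

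iNKT cells are T lymphocytes that recognise lipid antigens held by CD1d. They mature in the thymus and then settle in tissues such as the lung. CD244 is a receptor of the SLAM family carried by natural killer cells and some T cells. The 5 genes act at different places in a cell: P2ry10 and embigin (Emb) at its surface, Vps37b on endosomes, Dgat1 in the endoplasmic reticulum and Crem in the nucleus.

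Values are in the deposited units, which are molecules times a constant of the library. The authors' scaling set each lung library to 19342.9 units and each thymus library to 26890.5 units in all. Recovered molecules per library numbered 42520 to 51436 in lung CD244-positive, 29696 to 32196 in lung CD244-negative, 56615 to 71789 in thymus CD244-positive and 60120 to 67478 in CD244-negative thymus cells. The floor of 3 molecules in 1 library was worth between 1.12 units (thymus CD244-positive) and 1.95 units (lung CD244-negative). All 53 nonzero values of the 5 genes were whole numbers of molecules (tolerance 1e-06). Intervals and floors on molecules cover counting error only. Log2 differences are between means of log2(value + 1), which understates changes of genes with low values.

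The lung CD244-positive libraries stood apart from the other 9. Markers of myeloid cells summed to 83.1 to 161 per 10000 molecules there, with all 14 markers present. The sum was 1.35 to 2.65 in lung CD244-negative cells, where 10 of the 14, among them Mrc1, C1qa, Lyz2 and Cd68, were at 0. It was 0.946 to 1.39 in thymus CD244-positive and 0.998 to 1.63 in CD244-negative thymus cells. Markers of T and iNKT cells (10 genes in the table) summed to 14 to 25.9 per 10000 molecules in lung CD244-positive, 39.1 to 41.4 in lung CD244-negative, 40.4 to 44.4 in thymus CD244-positive and 39.7 to 46.8 in CD244-negative thymus cells. Immediate early genes summed to 74.9 to 90.2, 46.1 to 50.6, 11.1 to 14.5 and 12.5 to 12.9 per 10000 in the same order of groups. Markers of lung epithelium summed to 1.23 to 3.35 in lung CD244-positive, 1.63 to 3.37 in lung CD244-negative, 0 to 0.158 in thymus CD244-positive and 0 in CD244-negative thymus cells, so lung and thymus libraries did not overlap. Markers of B cells (at most 1.18), endothelium (at most 0.337) and thymocytes (at most 1.33) were low in all 12 libraries.

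**Figure D1:**
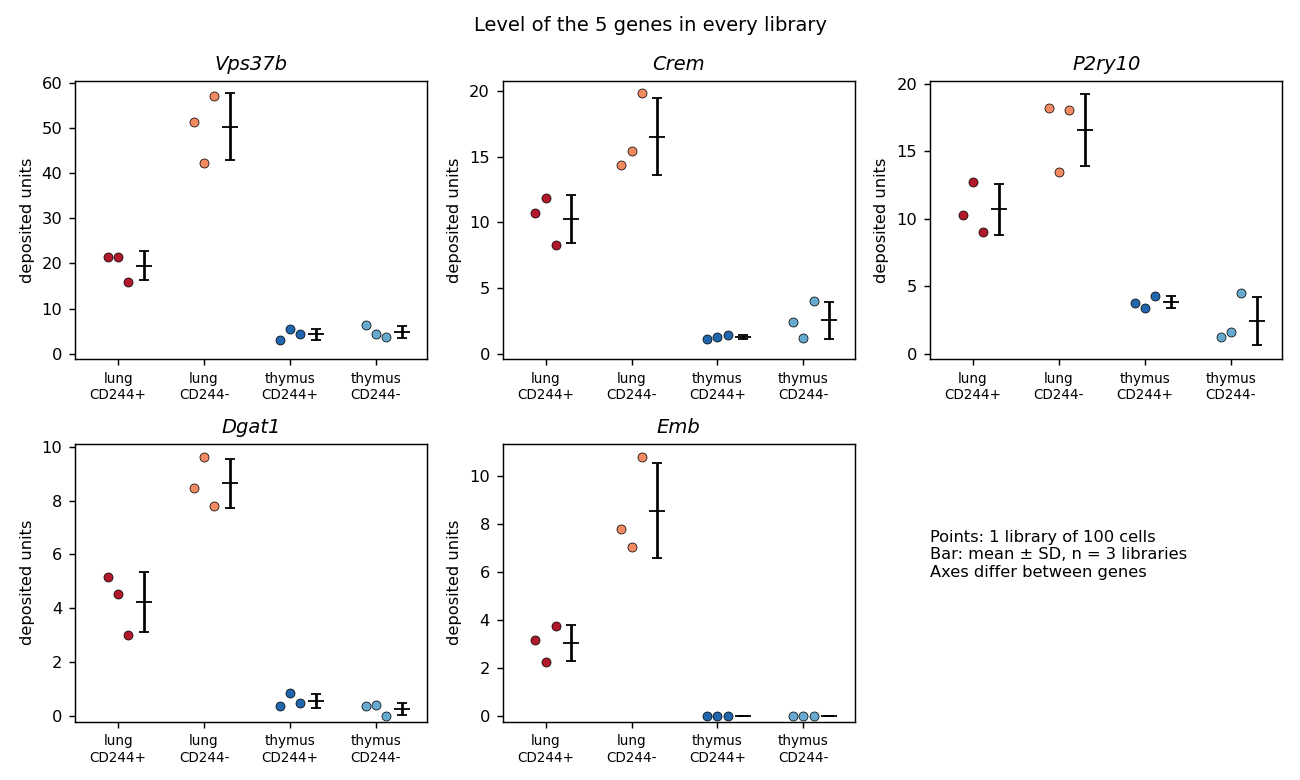
Deposited units (linear axes that differ between genes) of P2ry10, Emb, Vps37b, Dgat1 and Crem in each library of 100 cells. Points are libraries, bars are the mean ± SD of 3 libraries, and for all 5 genes the lung CD244-negative libraries were highest, the lung CD244-positive libraries came next and the thymus groups lay below both.

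P2ry10 encodes a G protein-coupled receptor for lysophosphatidylserine on lymphocytes. It lies on chromosome X at 107088492 to 107104974, plus strand (GRCm38). It measured 10.3, 12.7 and 9.03 units in the lung CD244-positive libraries, against 3.75, 3.39 and 4.27 units in thymus CD244-positive. It measured 18.2, 13.5 and 18.0 units in the lung CD244-negative libraries, against 1.20, 1.61 and 4.47 units in thymus CD244-negative. Every lung library lay above every thymus library, every lung CD244-negative library lay above every lung CD244-positive one, and the thymus groups overlapped. Group means were 10.7 ± 1.89 units in lung CD244-positive, 16.6 ± 2.69 in lung CD244-negative, 3.804 ± 0.445 in thymus CD244-positive and 2.43 ± 1.78 in CD244-negative thymus cells (SD, n = 3 each). The lung mean was 2.81 times the thymus mean in CD244-positive cells and 6.84 times in CD244-negative cells. Its neighbour P2ry10b, a paralog that starts 43953 bases past its end, never exceeded 1.21 units in a library and had 2, 0, 4 and 4 molecules over the same order of groups.

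P2ry10 has 2 transcription starts in the RefSeq promoter table (GRCm38.p6), and bases before them are shown because P2ry10 is the member with promoter letters in that table outside annotated UTRs. The stretch chrX:107088242-107088491 on the plus strand precedes the first start. Its capitals mark an AP-1 site that begins 99 bases before that start. The shorter stretch chrX:107089220-107089244 on the plus strand lies before the second start. Its capitals mark the short form TGACG of a cAMP response element on the opposite strand, beginning 103 bases before that start. The last 11 of its 25 bases, the final letter of the capitals among them, lie in an annotated UTR of the gene.
P2ry10 first start: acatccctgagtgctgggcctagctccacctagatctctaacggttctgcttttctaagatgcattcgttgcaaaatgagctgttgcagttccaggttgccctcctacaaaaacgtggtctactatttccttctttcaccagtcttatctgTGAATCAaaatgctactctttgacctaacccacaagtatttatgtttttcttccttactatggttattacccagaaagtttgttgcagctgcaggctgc
P2ry10 second start: acttgattaaCGTCAtctgctcaag
Searched on both strands in 250 bases, the AP-1 letters TGANTCA were in 6.7% of 32851 promoters and the short form TGACG in 17.8%. The full element TGACGTCA (1.5% of promoters), which holds the short form, and the CCAAT box (33.8%) were in neither P2ry10 window nor in the Emb window. The Emb window had the GC box GGGCGG, present in 32.7% of promoters, 11 bases before the start. Vps37b, Dgat1 and Crem had no entry in that table.

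Emb encodes embigin, an immunoglobulin-family glycoprotein that helps monocarboxylate transporters reach the cell surface. It lies on chromosome 13 at 117208536 to 117274415, plus strand. It measured 3.17, 2.27 and 3.76 units in the lung CD244-positive libraries, against 0 in all 3 thymus CD244-positive libraries. It measured 7.82, 7.06 and 10.8 units in the lung CD244-negative libraries, against 0 in all 3 thymus CD244-negative libraries. Emb was thus detected in every lung library and in no thymus library, and the lung subsets did not overlap. Group means were 3.07 ± 0.748 units in lung CD244-positive and 8.56 ± 1.99 units in lung CD244-negative cells (SD, n = 3 each). These rested on 23 and 41 molecules. Against a floor of 3 molecules over each thymus group, the lung mean was at least 7.30-fold higher in CD244-positive and at least 20.6-fold higher in CD244-negative cells. The antisense gene Gm17509 overlaps 2375 bases of Emb, and use of strand in the counting is not given in the sources used here.

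Vps37b encodes a subunit of ESCRT-I, the complex that sorts ubiquitinated membrane proteins into multivesicular endosomes. It lies on chromosome 5 at 124004641 to 124032270, minus strand. It measured 21.4, 21.4 and 15.8 units in the lung CD244-positive libraries, against 3.00, 5.51 and 4.27 units in thymus CD244-positive. It measured 51.5, 42.3 and 57.1 units in the lung CD244-negative libraries, against 6.38, 4.42 and 3.58 units in thymus CD244-negative. The 3 lung CD244-negative libraries stood far above all others, the lung CD244-positive libraries stood above both thymus groups, and the thymus groups overlapped. Group means were 19.5 ± 3.22 units in lung CD244-positive, 50.3 ± 7.43 in lung CD244-negative, 4.26 ± 1.26 in thymus CD244-positive and 4.79 ± 1.43 in CD244-negative thymus cells (SD, n = 3 each). The lung mean was 4.58 times the thymus mean in CD244-positive and 10.5 times in CD244-negative cells. The plus-strand gene Hip1r overlaps 918 bases of Vps37b and averaged 0.389, 0.635, 1.49 and 0.919 units over the same order of groups. These means rested on 3, 3, 11 and 6.5 molecules, and the part of Hip1r reads in the Vps37b values was not tested.

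Dgat1 encodes diacylglycerol acyltransferase, an enzyme of the final step of triglyceride synthesis. It lies on chromosome 15 at 76502015 to 76511953, minus strand, with no overlapping gene. It measured 5.15, 4.55 and 3.01 units in the lung CD244-positive libraries, against 0.375, 0.848 and 0.475 units in thymus CD244-positive. It measured 8.47, 9.62 and 7.81 units in the lung CD244-negative libraries, against 0.399, 0.402 and 0 units in thymus CD244-negative. All thymus libraries were below the value of 3 molecules, and the 3 groups of lung CD244-positive, lung CD244-negative and thymus libraries were separate. Group means were 4.23 ± 1.10 units in lung CD244-positive, 8.63 ± 0.919 in lung CD244-negative, 0.566 ± 0.249 in thymus CD244-positive and 0.267 ± 0.231 in CD244-negative thymus cells (SD, n = 3 each). The lung mean in units was 7.485 times the thymus mean in CD244-positive and 32.35 times in CD244-negative cells. Ratios of molecule shares run higher than those of units, because lung and thymus libraries were set to different totals. In CD244-positive cells 31 lung and 4 thymus molecules gave a ratio of molecule shares of 10.4 (exact 95% interval 3.68 to 40.6). In CD244-negative cells 41 lung and 2 thymus molecules gave a ratio of 43.3 (11.2 to 370). These wide intervals overlap.

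Crem encodes the cAMP responsive element modulator, a transcription factor with activating and repressing forms, among them the inducible repressor ICER. A value per gene does not tell these forms apart. It lies on chromosome 18 at 3266048 to 3337748, minus strand, and overlaps Gm6225, which was at 0 in all libraries. Crem measured 10.7, 11.8 and 8.27 units in the lung CD244-positive libraries, against 1.12, 1.27 and 1.42 units in thymus CD244-positive. It measured 14.3, 15.4 and 19.8 units in the lung CD244-negative libraries, against 2.39, 1.21 and 4.03 units in thymus CD244-negative. Every lung library exceeded every thymus library, the lung subsets did not overlap and the thymus subsets did. Group means were 10.3 ± 1.82 units in lung CD244-positive, 16.5 ± 2.91 in lung CD244-negative, 1.27 ± 0.151 in thymus CD244-positive and 2.54 ± 1.42 in CD244-negative thymus cells (SD, n = 3 each). The lung mean was 8.06 times the thymus mean in CD244-positive and 6.50 times in CD244-negative cells.

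The lung rise was thus present in both CD244 subsets for 5 of 5 genes. In CD244-positive cells the lung minus thymus difference in log2(value + 1) was 1.27 ± 0.30 for P2ry10, 2.01 ± 0.39 for Emb, 1.98 ± 0.24 for Vps37b, 1.73 ± 0.37 for Dgat1 and 2.30 ± 0.31 for Crem (SE). In CD244-negative cells it was 2.47 ± 0.30 for P2ry10, 3.24 ± 0.39 for Emb, 3.16 ± 0.24 for Vps37b, 2.94 ± 0.37 for Dgat1 and 2.37 ± 0.31 for Crem (SE). All 5 were above the call threshold (limma, adjusted p below 0.05) in each subset, where 5.27% of 5138 tested genes were called higher in CD244-positive and 2.18% in CD244-negative cells. Lung and thymus libraries did not overlap for all 5 in each subset, as for 8.41% of tested genes in CD244-positive and 4.75% in CD244-negative cells. The genes were chosen on this contrast, so nothing is read from these counts. Dgat1 and Emb passed the filter on low values through their lung libraries alone, and the Emb differences depend on the pseudocount because its thymus values are 0. The median difference of all tested genes was -0.27 in CD244-positive and -0.29 in CD244-negative cells, and 0.00 and -0.03 with every library set to a common total. Of 10 tested T and iNKT markers, 8 were called lower in lung than in thymus in CD244-positive cells and 3 in CD244-negative cells. Of 13 tested myeloid markers, 13 were called higher in lung CD244-positive cells and none in lung CD244-negative cells, where the 5 genes rose as well. Of 17 tested immediate early genes, 13 were called higher in lung in CD244-positive cells and 5 in CD244-negative cells. Of 7 lung epithelium markers 1 passed the filter, Scgb1a1, a secretory protein of airway cells. It averaged 2.28 ± 1.996 units in lung CD244-positive and 2.96 ± 0.826 units in lung CD244-negative cells (SD, n = 3 each), was at 0 in all thymus libraries, and was called higher in lung in both subsets. The lung CD244-positive libraries held all of the 7 but Ager, and the lung CD244-negative libraries all but Sftpa1, Sftpd and Ager. The part of these other transcripts in the rise was not tested. In bulk libraries such as these, fewer cells that express a gene and less RNA per cell cannot be told apart.

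**Figure D2:**
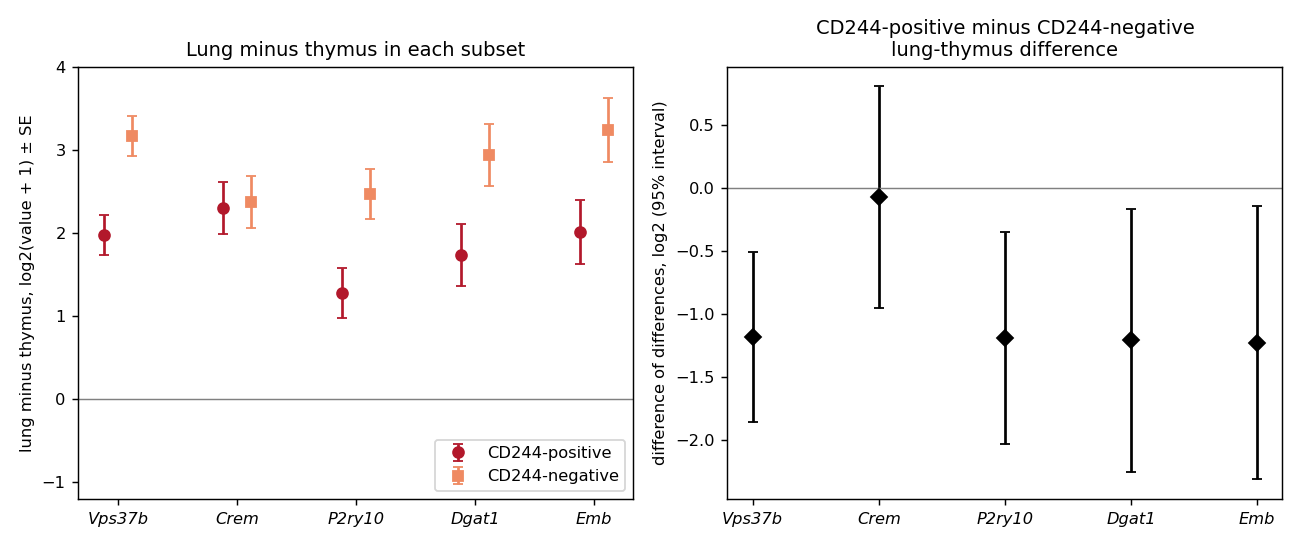
Left, lung minus thymus difference in log2(value + 1) for each gene, with SE, in CD244-positive (circles) and CD244-negative cells (squares). Right, the CD244-positive difference minus the CD244-negative one, with 95% intervals. The value for Crem is -0.08 and the other 4 lie between -1.23 and -1.19, where that of Emb equals its CD244 difference in lung.

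The difference between the subsets in the size of the lung rise was tested as an interaction. If the genes were picked on the lung rise of 1 subset, this test and the CD244 comparison in lung share libraries with that choice. The rise of Vps37b was smaller in CD244-positive than in CD244-negative cells, with a difference of -1.19 ± 0.34 on the log2 scale (SE, 95% interval -1.86 to -0.51, limma adjusted p = 0.0275). Vps37b was the 1 of 5 genes called, where 0.623% of tested genes were called in this direction. The other 4 did not pass the threshold. P2ry10 differed by -1.19 ± 0.42 (interval -2.04 to -0.35, adjusted p = 0.122), Dgat1 by -1.21 ± 0.53 (-2.26 to -0.16, adjusted p = 0.276) and Emb by -1.23 ± 0.55 (-2.32 to -0.15, adjusted p = 0.291). Emb was at 0 in every thymus library, so its value only repeats its CD244 difference in lung. Dgat1 was near the floor in thymus. For Crem the difference was -0.08 ± 0.44 (interval -0.96 to 0.81, adjusted p = 0.970), which leaves room for a rise almost 1 log2 unit smaller or larger in CD244-positive cells. The Vps37b call was lost without any 1 of 8 of the 12 libraries, while the difference stayed between -1.37 and -1.02. Its adjusted p was 0.0513 without lung CD244-positive library 2 and 0.199 without library 3 of that group, and 0.0681 and 0.101 without lung CD244-negative libraries 1 and 3. It was 0.131 and 0.0532 without thymus CD244-positive libraries 2 and 3, and 0.0590 and 0.106 without thymus CD244-negative libraries 2 and 3.

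Between the subsets within lung, all 5 genes were lower in CD244-positive cells in the sense that the libraries did not overlap, as held for 9.75% of tested genes. CD244-positive means were 0.645 times the CD244-negative means for P2ry10, 0.358 for Emb, 0.388 for Vps37b, 0.491 for Dgat1 and 0.621 for Crem. Vps37b fell by 1.32 ± 0.24 on the log2 scale (SE, 95% interval -1.80 to -0.85, limma adjusted p = 1.66e-05). Emb fell by 1.23 ± 0.39 (interval -2.00 to -0.46, limma adjusted p = 0.0280), a call lost without lung CD244-positive library 1 (adjusted p = 0.0860), 2 (0.189) or 3 (0.0772) or lung CD244-negative library 3 (0.117). These 2 of 5 genes were called lower, where 2.82% of tested genes were. The differences of P2ry10 (-0.59 ± 0.30, interval -1.19 to 0.01, adjusted p = 0.262), Dgat1 (-0.90 ± 0.37, -1.64 to -0.16, adjusted p = 0.133) and Crem (-0.64 ± 0.31, -1.26 to -0.01, adjusted p = 0.240) did not pass. The median over all tested genes was -0.01. By edgeR on recovered molecules Vps37b was the 1 of 5 called lower, beside 4.25% of its genes.

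Markers of other cells moved with this comparison. Of 13 tested myeloid markers 13 were called higher in lung CD244-positive than in lung CD244-negative cells (5.61% of all tested genes were), and of 10 T and iNKT markers 4 were called lower and none higher. Thy1, a T cell surface protein, averaged 3.80 ± 2.11 units in lung CD244-positive and 13.96 ± 4.45 units in lung CD244-negative cells (SD, n = 3 each). Of 17 tested immediate early genes 9 were called higher in lung CD244-positive cells, the opposite direction to Vps37b and Emb.

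**Figure D3:**
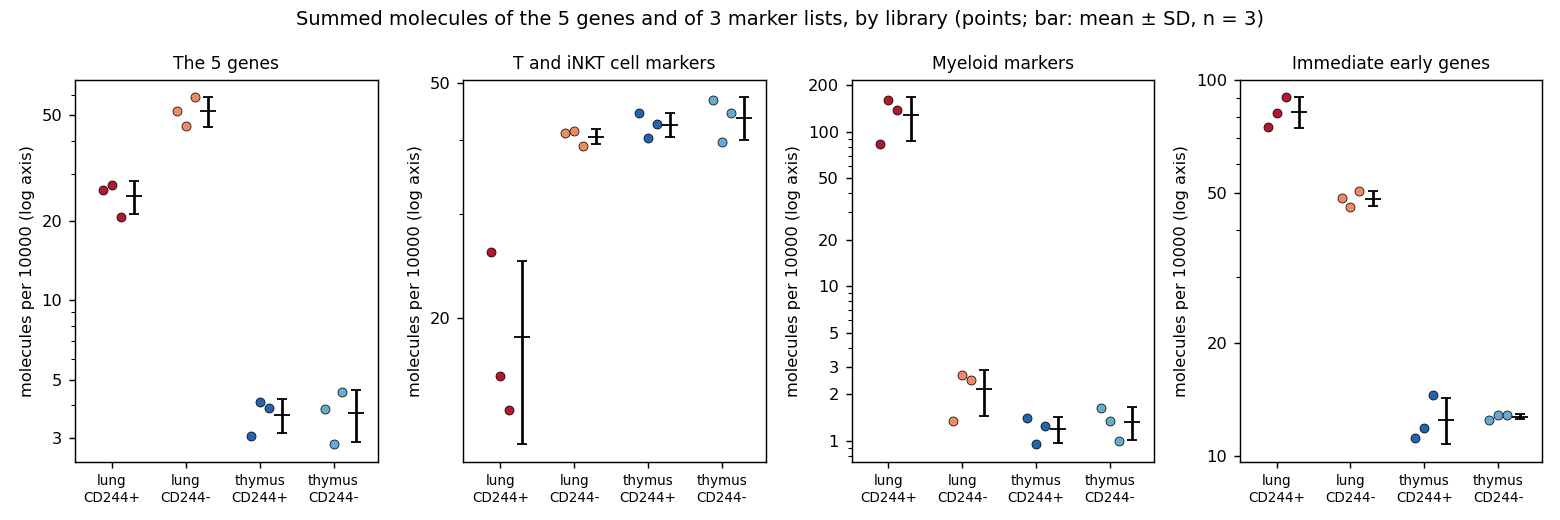
Summed molecules per 10000 (log axes) of the 5 genes, of T and iNKT cell markers, of myeloid markers and of immediate early genes, in each library (points) with mean ± SD of 3 libraries (bars). Lung CD244-positive libraries were low for T and iNKT markers (14 to 25.9) and high for myeloid markers (83.1 to 161) beside every other group.

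Set against T cell transcripts, the lung subsets overlapped for all 5 genes. The 5 genes summed to 242, 483 and 353 molecules per 100 molecules of Cd3d, Cd3e, Cd3g and Cd247 in the lung CD244-positive libraries, and to 428, 294 and 461 in the lung CD244-negative libraries. The same sums were 18.6, 26.4 and 27.9 in thymus CD244-positive and 22.6, 17.3 and 26.0 in thymus CD244-negative libraries. Per 100 of these molecules, Vps37b ran from 102 to 196 in CD244-positive lung libraries, against 141 to 232 in CD244-negative ones. Crem ran from 50.9 to 108 in CD244-positive lung libraries, against 51.4 to 80.5 in CD244-negative ones. Both lung subsets thus lay far above both thymus groups on this measure. The mean was lower in lung CD244-positive than in lung CD244-negative cells for Vps37b (146 and 198), Emb (23.1 and 33.6), Dgat1 (31.0 and 33.3) and the sum of the 5 (359 and 394), and higher for Crem (77.5 and 64.3) and P2ry10 (81.9 and 65.3).

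With all libraries scaled to those 4 genes, neither lung call was kept, and their small totals add noise to the scaling. Of all genes 0.512% were called lower there. The lung difference of Vps37b became -0.45 (limma adjusted p = 0.318) and that of Emb -0.51 (0.406). Scaled to the 10 T and iNKT markers, an alternative chosen after seeing the data, they became -0.19 (0.626) and -0.27 (0.626), and 0.335% of genes were called lower. Crem and P2ry10 turned positive under both scalings, at 0.22 and 0.46 for Crem and 0.27 and 0.52 for P2ry10. The adjusted p over all alternatives ranged from 2.24e-08 to 0.626 for Vps37b and from 0.000285 to 0.626 for Emb. Such scalings multiply all genes of a library by 1 factor, which moves low values less on log2(value + 1). The median of all tested genes in this comparison was 0.61 and 0.76 under them. Relative to that median each of the 5 genes was lower, with Vps37b at -1.05 and -0.95, Emb at -1.11 and -1.03 and P2ry10 at -0.34 and -0.24. Subtracting the median undoes the scaling in part, so such values lie between the scaled and the unscaled differences and are no test of either. The interaction of Vps37b became -0.43 (adjusted p = 0.642) and -0.09 (0.898), over a range of 0.00109 to 0.898 for all alternatives. The median interaction of all genes was 0.55 and 0.75 under the same scalings, against 0.03 in deposited units. Relative to it Vps37b stood at -0.98 and -0.84, against -1.22 in deposited units. Under the first scaling the lung minus thymus difference in CD244-positive cells was 3.44 for Vps37b, 3.63 for Crem, 2.70 for P2ry10, 2.89 for Dgat1 and 3.00 for Emb. The median of all genes was 0.71 there and 26.5% of genes were called higher. Relative to the median the 5 differences were 1.99 to 2.92, against 1.55 to 2.57 in deposited units. The part of the myeloid RNA in the lung CD244 difference was not tested beyond these scalings.

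**Figure D4:**
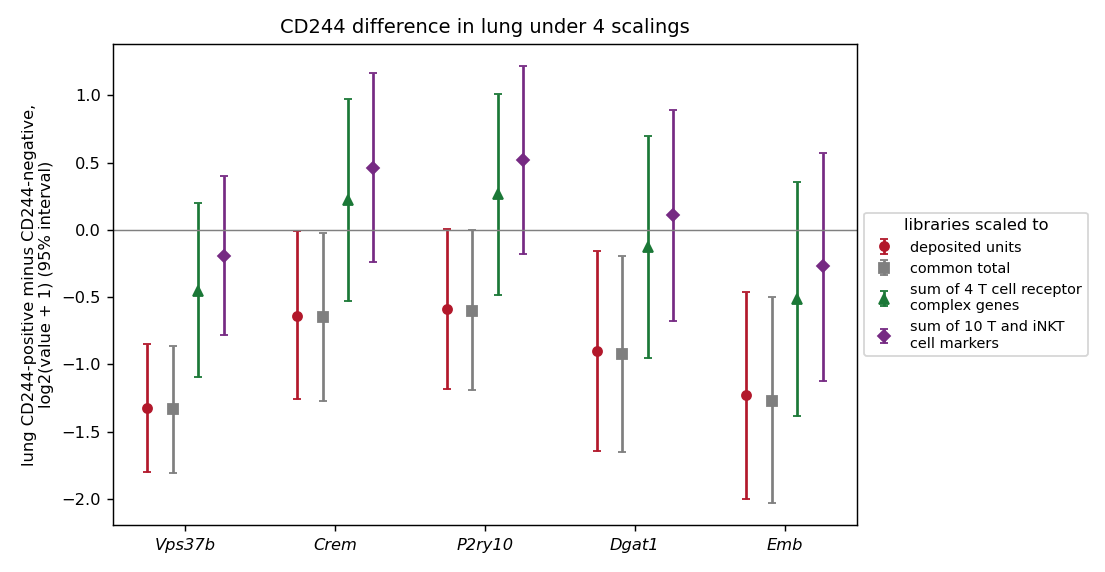
Difference of lung CD244-positive minus lung CD244-negative in log2(value + 1), with 95% intervals, for each gene under 4 scalings of the libraries. All 5 values were below 0 in deposited units and with a common total, and Vps37b moved to -0.45 and -0.19 when libraries were scaled to T cell transcripts.

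In thymus none of the 5 genes was called between the CD244 subsets by limma, where 0.409% of tested genes were called in either direction. The subsets overlapped for all 5, while 5.47% of tested genes were higher and 6.42% lower in CD244-positive cells without overlap. The CD244-positive minus CD244-negative difference was 0.60 ± 0.30 for P2ry10 (SE, interval 0.01 to 1.20, unadjusted p = 0.0470, adjusted p = 0.840), where all 3 CD244-positive libraries lay above 2 of the 3 CD244-negative ones and below the other. It was -0.14 ± 0.24 for Vps37b (interval -0.61 to 0.34), 0.31 ± 0.37 for Dgat1 (-0.43 to 1.05) and -0.56 ± 0.31 for Crem (-1.19 to 0.06). Emb was at 0 in all 6 libraries, so no difference could be seen at this depth. P2ry10 was the 1 of 5 with an unadjusted p below 0.05, beside 305 of 5138 tested genes, and edgeR on recovered molecules called 0 of the 5 (1.04% of its genes, all of them higher). Markers of T and iNKT cells and of myeloid cells overlapped between these groups.

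The patterns of the 5 genes over the 12 libraries were alike, with Pearson r on log2(value + 1) of 0.882 to 0.979 over their 10 pairs. The libraries share the same tissue groups, and after subtracting group means r ran from -0.498 to 0.711. Vps37b was most like Dgat1 (r = 0.979), Emb (0.978) and Gcnt2 (0.968), a glycosyltransferase gene. Emb was most like Gcnt2 (0.978), Vps37b (0.978) and Ramp3 (0.977), which encodes a receptor activity-modifying protein. Ramp3 averaged 1.97 and 7.88 units in lung CD244-positive and lung CD244-negative cells, against 0 and 0.133 units in thymus CD244-positive and thymus CD244-negative cells. Dgat1 was most like Vps37b (0.979), Emb (0.965) and the RNA gene Rn4.5s (0.957).

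Crem and P2ry10 had other nearest genes. Crem was most like Junb (0.974), an AP-1 transcription factor, Rn4.5s (0.968) and Nr4a3 (0.953), an orphan nuclear receptor. P2ry10 was most like Rn4.5s (0.930), Junb (0.927) and Fosl2 (0.915), another AP-1 gene. Junb averaged 22.8 and 30.0 units in lung CD244-positive and lung CD244-negative cells, against 2.86 and 3.80 units in thymus CD244-positive and thymus CD244-negative cells. These values of r rank genes only and have no test.

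The 5 pathway lists held 47 tested genes beside the members. Of these, 5 were called higher and 6 lower in lung than in thymus in CD244-positive cells, and 6 higher and 3 lower in CD244-negative cells. Called genes made up 5.27% (higher) and 9.61% (lower) of all tested genes in CD244-positive and 2.18% and 8.52% in CD244-negative cells. Of the 5 other tested ESCRT-I genes and of the 4 other tested genes of embigin and monocarboxylate transport, none was called in either tissue comparison. Their median lung minus thymus differences were 0.10 and 0.24 in CD244-positive cells, and 0.18 and -0.05 in CD244-negative cells, beside -0.27 and -0.29 over all tested genes.

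Of 16 other tested genes of cAMP signalling, 1 was called higher and 5 lower in lung CD244-positive cells than in thymus, and 2 higher and 1 lower in CD244-negative cells. Their median difference was -0.69 in CD244-positive and -0.25 in CD244-negative cells. Pde4d, a phosphodiesterase that degrades cAMP, was higher in lung in both subsets, by 1.58 ± 0.39 in CD244-positive (adjusted p = 0.00156) and 1.33 ± 0.39 in CD244-negative cells (adjusted p = 0.0147; SE, limma). Pde4b, a related phosphodiesterase, averaged 2.98 ± 0.534 units in lung CD244-positive and 6.33 ± 0.882 in CD244-negative lung cells, against 1.46 ± 0.95 and 1.94 ± 0.644 in thymus CD244-positive and CD244-negative cells (SD, n = 3 each), and was called in the CD244-negative comparison (1.33 ± 0.36 SE, adjusted p = 0.00727). Prkar1a and Prkacb, subunits of protein kinase A, and the phosphodiesterase gene Pde7a were called lower in lung CD244-positive cells (-0.97, -1.06 and -1.18). None of these 3 was called with a common total (-0.55, -0.66 and -0.83), and they stood at 0.46, 0.28 and -0.01 when scaled to T cell receptor complex transcripts, where the median of all genes was 0.71 and all 3 lay below it. Prkacb was also called lower in CD244-negative cells (-1.32), and not with a common total (-0.92).

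Among 12 other tested genes of lysophospholipid and related receptors with their G12/13 effectors, 2 were called higher and 1 lower in lung CD244-positive cells, and 3 higher and 2 lower in lung CD244-negative cells. Their median difference was -0.15 in CD244-positive and -0.50 in CD244-negative cells. S1pr1, the sphingosine 1-phosphate receptor of lymphocyte egress, was higher in lung by 1.39 ± 0.40 in CD244-positive (adjusted p = 0.00832) and 1.70 ± 0.40 in CD244-negative cells (adjusted p = 0.00125; SE, limma). It had 31 lung and 8 thymus molecules in CD244-positive cells, and 13 and 1 in CD244-negative cells. No edgeR value was obtained for S1pr1 in either comparison. Lpar6, a lysophosphatidic acid receptor, was lower in lung, with differences of -1.66 ± 0.31 in CD244-positive (adjusted p = 1.72e-05) and -2.08 ± 0.31 in CD244-negative cells (adjusted p = 1.6e-07; SE, limma). Its CD244-positive call was lost when libraries were scaled to T cell receptor complex transcripts (-0.42). Relative to the median of all genes it was -1.13 under that scaling and -1.39 in deposited units, but subtracting the median undoes the scaling in part. Gna13, a G protein subunit among the G12/13 genes of this list, averaged 7.69 ± 3.64 units in lung CD244-positive and 3.07 ± 1.87 units in thymus CD244-positive cells (SD, n = 3 each, limma adjusted p = 0.00971). It averaged 8.38 ± 1.07 and 3.98 ± 1.43 units in lung and thymus CD244-negative cells (SD, n = 3 each). The part of myeloid RNA in the Gna13 level was not tested. In CD244-negative cells Gpr132 was called higher in lung (1.73 ± 0.33, adjusted p = 4.91e-05) and Gpr65 lower (-1.44 ± 0.36, adjusted p = 0.00292), and Gpr65 was not called with a common total (-1.13).

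Of 10 other tested genes of triglyceride synthesis and lipid droplets, 2 were called higher and none lower in lung CD244-positive cells, and 1 higher and none lower in lung CD244-negative cells. Their median difference was 0.36 in CD244-positive and -0.01 in CD244-negative cells. Hilpda, which inhibits triglyceride breakdown at lipid droplets, was higher by 1.27 ± 0.40 in CD244-positive (adjusted p = 0.0176) and 1.43 ± 0.40 in CD244-negative cells (adjusted p = 0.00897, SE, limma). It had 13 lung and 1 thymus molecules in CD244-positive cells, and 12 and 2 in CD244-negative cells. Plin2, a coat protein of lipid droplets, averaged 3.29 ± 1.78 units in lung CD244-positive and 1.01 ± 1.24 units in lung CD244-negative cells (SD, n = 3 each). It was at 0 in thymus CD244-positive cells and averaged 0.416 units in thymus CD244-negative cells. Plin2 was called higher in lung CD244-positive than in thymus CD244-positive cells (adjusted p = 5.38e-05) and than in lung CD244-negative cells (1.19 ± 0.40 SE, adjusted p = 0.0482), the second call being lost with quantile normalization (1.09). Its direction in lung was thus opposite to that of Dgat1, and the lung CD244-positive libraries where it was high were those that held myeloid markers. The part of myeloid RNA in the Plin2 level was not tested.

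In the lung CD244 comparison the same lists held 2 other called genes. Rock2, a kinase downstream of RhoA, averaged 2.52 ± 1.08 units in lung CD244-positive and 0.414 ± 0.359 units in lung CD244-negative cells (SD, n = 3 each, limma adjusted p = 0.0224). These means rested on 19 and 2 molecules, and edgeR gave no value for Rock2. The part of myeloid RNA in its level was not tested. Prkar1a averaged 6.06 ± 0.663 units in lung CD244-positive and 11.3 ± 1.35 units in lung CD244-negative cells (SD, n = 3 each, limma adjusted p = 0.0306), and its difference was 0.02 when scaled to T cell receptor complex transcripts, -0.59 relative to the median of all genes. Prkar1a was also called for the interaction (-1.27 ± 0.36 SE, limma adjusted p = 0.0270), and that difference was -0.56 under the same scaling, -1.11 relative to the median. By edgeR on recovered molecules Prkar1a was called neither in lung (-0.66, edgeR adjusted p = 0.193) nor for the interaction (-1.16, edgeR adjusted p = 0.225). For both Prkar1a differences, subtracting the median undoes the scaling to T cell receptor complex transcripts in part. No other gene of these 5 lists beside Vps37b and Emb was called in that comparison, and none was called in thymus.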

How the data were processed

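RNA of 12 libraries was read with molecular barcodes. Mapping used STAR on mm10, per the submitters' processing notes. The version, the counting step and the scaling formula are not given in the sources used here. The deposited table holds a signal made by the authors: 94.3% to 95.9% of nonzero values were whole multiples of a constant of the library (tolerance 1e-06). Molecules were recovered by dividing by it. ERCC rows in the table numbered 0.

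Groups came from the labels. The 5 genes and the gene lists were chosen with earlier results of these data known. Since the table held no raw counts, the test for normalized values was used: limma 3.58.1 (trend, robust; R 4.3.3) on log2(value + 1), 1 model of 4 groups over the 5138 genes above 1 in at least 3 libraries, two-sided p adjusted by Benjamini-Hochberg over all of them, threshold 0.05. The test was tried on simulated data. Whole molecules passed a check in 9 libraries, and edgeR 4.0.16 (quasi-likelihood, TMM) was run on those as an alternative. It called 12 of 1154 genes between CD244 subsets in thymus and 131 higher and 49 lower in lung.

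Genes named beside the 5 were members of the 5 pathway lists past the threshold (at most 4 per list and comparison by smallest p) and the 3 most correlated genes per member. Cell type markers and the neighbours or overlapping genes of the 5 were named outside that rule. Positions are from GENCODE M21 (GRCm38). Replicates differed by more than sampling noise and none was a duplicate. Chi-square per degree of freedom was 1.65 to 1.70 between lung CD244-positive replicates and 1.09 to 1.23 in the other groups. The limma fit used 1 spread per gene for all groups. Alternatives were other scalings, filters, pseudocounts (0.5 and 5), quality weights, a replicate block, fewer libraries in the fit and each library left out.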

Additional observations from a re-analysis of the deposited data

Results flagged for a closer look

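The lung minus thymus difference of Vps37b was smaller in CD244-positive than in CD244-negative cells, a difference of -1.19 on the log2 scale, and stands here because the test of that difference itself passed the threshold (limma adjusted p = 0.0275). In units the lung means were 19.5 in CD244-positive and 50.3 in CD244-negative cells, with thymus means of 4.26 and 4.79 in the same order. The lung CD244-positive libraries also held 14 to 25.9 T and iNKT marker molecules per 10000, against 39.1 to 41.4 in lung CD244-negative libraries. Scaled to T cell receptor complex genes the difference was -0.43, where the median of all genes was 0.55. Relative to the median it was -0.98, against -1.22 in deposited units, but subtracting the median undoes the scaling in part.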

How the results depend on the processing

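The lung minus thymus difference of the 5 genes stayed above 0 in 240 of 240 values under the alternatives run, and 5 of 5 were called in each subset under every one of them. The genes were chosen on this contrast and the libraries are the same, so nothing is read from these counts. Scaled to T cell receptor complex genes, 26.5% of all genes were called higher in CD244-positive and 2.1% in CD244-negative cells. Scaled to T and iNKT markers the shares were 33.8% and 1.49%, and by edgeR 15.6% and 9.01%. For CD244 in thymus 0 of 5 were called. The number called lower in lung CD244-positive cells (2) was 0 under each of the scalings to T cell transcripts. It was 1 with no filter, a pseudocount of 0.5, quality weights or edgeR (4.25% of its genes), and 1 to 2 with 1 library left out. With the stricter filter of 5 or a pseudocount of 5 it was 3, as Dgat1 passed (limma adjusted p = 0.0434 and 0.0162, range over alternatives 0.0162 to 0.847). All genes called lower numbered 135 of 922 with that filter and 153 of 5138 with that pseudocount. The number called for the interaction (1) was 0 under both T cell scalings, with no filter, with a pseudocount of 0.5 and with edgeR, and 0 to 1 with 1 library left out. It was 2 with that filter and with a pseudocount of 5, where Emb passed (limma adjusted p = 0.0350 and 0.0431, range over alternatives 0.035 to 1). All genes called lower for it numbered 46 of 922 with that filter and 38 of 5138 with that pseudocount. Dgat1 and Emb passed that filter through lung CD244-negative libraries, where they are high, so calls gained under it are no support. Without thymus CD244-negative library 3, P2ry10 passed instead of Vps37b (-1.59, adjusted p = 0.0205, range over alternatives 0.0205 to 0.955).

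Directions that turned were those of differences that had not passed. In lung they were Crem (0.22 and 0.46) and P2ry10 (0.27 and 0.52) under both T cell scalings and Dgat1 (0.11) under the second. For the Crem interaction (-0.08) they were 0.63 and 0.94 under both T cell scalings, 0.01 with a pseudocount of 0.5, 0.55 with edgeR, and -0.37 to 0.23 with 1 library left out. Both T cell scalings also shift the median of all genes (0.61 and 0.76 in lung, 0.55 and 0.75 for the interaction). Relative to these medians the 3 lung differences were below 0, at -0.65 to -0.24, and the Crem interaction stood at 0.08 and 0.19, against -0.11 in deposited units. Subtracting the medians undoes the scalings in part, so these values are no test of the turns. For Vps37b in thymus the range with 1 library left out was -0.31 to 0.05. The cause of the turns was not tested.

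Replicate numbers did not pair the libraries: same-numbered libraries correlated at -0.028 to 0.016 over 18 pairs, and 9 of 36 correlated best with their own number. With the number as a block the counts stayed at 2 in lung and 1 for the interaction (Vps37b adjusted p = 0.0390). A fit on the compared libraries alone gave no value for Dgat1 and Emb in thymus and none for the interaction. Depth limits Emb and Dgat1 most, with 0 to 2 molecules per thymus library.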
